A study of Rattus norvegicus with 6 samples.

Results

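The glycine and GABA receptor genes and chloride transporter genes described here are Glra1, Glra2, Glrb, Gabra2, Gphn, Slc12a2 and Slc12a5. They were taken by gene symbol from the probe annotation of the array, which lists all 7, out of 14217 genes measured. Together they have 11 probe sets that belong to a single gene, of 20826 such probe sets, and the brightest of a gene, by its mean over the 6 arrays, leads it. Values are log2 expression, on which a difference of 1 is a doubling. Total RNA (100 ng each) came from dissociated spinal cord cultures of newborn rats (postnatal day 1 to 4) after 8 days in vitro. The 3 cultures named control 1 to control 3 had been plated on glass covered with polyornithine, and the 3 named CNT 1 to CNT 3 on glass covered with a film of multiwalled carbon nanotubes. According to the methods, both substrates received the same serum-containing medium with nerve growth factor. The labels give the strain as Sprague-Dawley where the methods name Wistar rats, and they do not say whether a control and a CNT culture of equal number share animals or a day.

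Glycine and GABA are the fast inhibitory transmitters of the spinal cord, and the receptors through which they act fast are chloride channels made of 5 subunits. Whether opening such a channel inhibits a neuron depends on its chloride content, which is set by a transporter that brings chloride in, encoded by Slc12a2 (NKCC1), and one that takes it out, encoded by Slc12a5 (KCC2). In the developing spinal cord the glycine receptor changes from the alpha 2 subunit of Glra2 to the alpha 1 subunit of Glra1, and rising KCC2 turns glycine and GABA from depolarizing into inhibitory. The comparison between substrates bears on the maturation of spinal neurons, which was the subject of the study.

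None of the 7 genes differed between CNT and control cultures beyond the spread between cultures. Their log2 fold changes lay between -0.14 (Glrb) and 0.11 (Glra1) with a median of -0.03, where the median of all 14217 genes was 0.03. No gene of the 7 passed an adjusted p of 0.05 in limma as higher or lower, and 0% of all genes did in either direction. At an unadjusted p under 0.05 limma gave none of the 7, against 2.41% of all genes higher and 0.71% lower. In none of the 7 did the control and CNT arrays lie apart, which was the case for 7.99% of all genes. The mean was lower on CNT in 4 of the 7 and in 41.5% of all genes. RNA of whole cultures was measured, so fewer neurons and less RNA per neuron cannot be told apart.

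**Figure D1:**
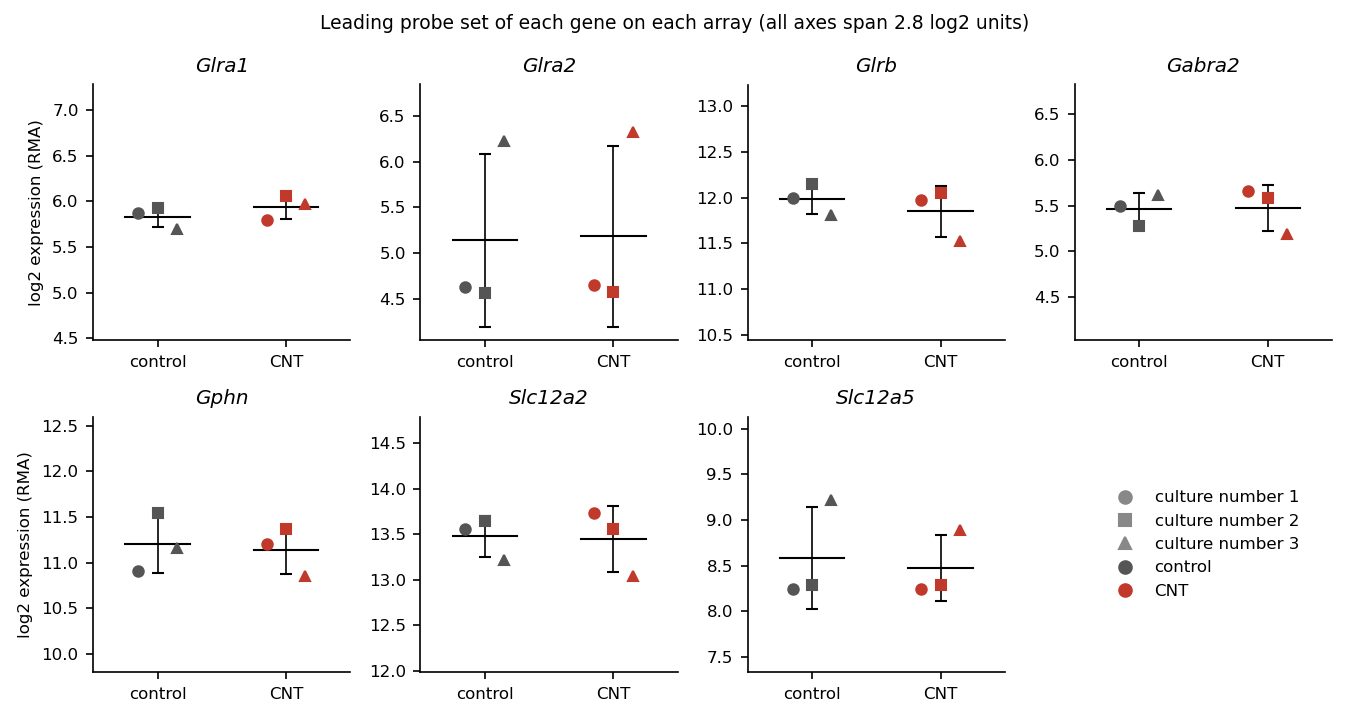
Log2 expression of the leading probe set of the 7 genes on each array, with control in grey and CNT in red and a symbol for each culture number. Lines mark the mean and bars the SD (n = 3); the groups overlap for every gene, and both cultures numbered 3 are the highest for Glra2 and Slc12a5 and the lowest for Glrb and Slc12a2.

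The cell types of the spinal cord were judged by marker lists. The brightest genes of their lists were Eno2 (neurons), Gfap (astrocytes), Mbp (myelin), C1qa (microglia) and Col3a1 (fibroblasts). Their means were above those of 89.4%, 99.7%, 99.9%, 99.5% and 99.7% of the genes. Other genes of the neuron list were dimmer, such as Syt1 (5.94 to 6.26 over the 6 arrays) and Rbfox3 (6.55 to 7.80). The mean of 20 neuron markers, relative to its mean over all arrays, ranged from -0.12 to 0.08 in control and from -0.04 to 0.03 in CNT cultures. That of 14 fibroblast and meningeal markers ranged from 0.26 to 0.64 in control and from -1.35 to 0.30 in CNT cultures. The mean of the other lists differed between CNT and control cultures by -0.08 (astrocytes), 0.17 (oligodendrocytes), 0.24 (microglia), -0.50 (smooth muscle and pericytes), 0.03 (Schwann cells) and 0.26 (endothelium). The signal of beta-actin was greater at its 3' than at its 5' end, by 0.62 to 2.20 in control and by 0.92 to 2.20 in CNT cultures. For GAPDH this excess was 0.18 to 0.82 in control and 0.22 to 0.59 in CNT cultures. Whether it reflects RNA degradation was not tested. When the neuron marker mean of each array was subtracted, the differences of the 7 genes between substrates ranged from -0.12 (Glrb) to 0.12 (Glra1), and the groups still overlapped for all 7.

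Glra1 encodes the alpha 1 subunit, the adult glycine-binding subunit. Its leading probe set gave a log2 expression of 5.87, 5.93 and 5.70 in controls 1, 2 and 3 and of 5.80, 6.06 and 5.97 in CNT 1, 2 and 3. All 6 values lie within 0.36 of each other, and the 2 groups overlap. The log2 fold change was 0.11 (standard error, SE, 0.12, 95% interval -0.17 to 0.39, adjusted p = 0.999 from limma). It was 0.04 without control 3 and 0.18 without CNT 1. The second Glra1 probe set was dimmer, at 4.53, 4.66 and 4.37 in control and at 4.56, 4.47 and 4.32 in CNT cultures, and its log2 fold change had the opposite sign (-0.07, SE 0.12). The mean of the leading probe set exceeds that of 10.5% of the genes, so this is one of the dim genes of the array.

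Glra2 encodes the alpha 2 subunit, the glycine-binding subunit of the embryonic and newborn spinal cord. Its leading probe set gave 4.62, 4.56 and 6.23 in controls 1, 2 and 3 and 4.65, 4.57 and 6.33 in CNT 1, 2 and 3. On each substrate the culture numbered 3 stood far above the other 2, which lie close together. Control 3 was 3.10-fold above the mean of the other controls and CNT 3 was 3.28-fold above that of the other CNT cultures. Between substrates the log2 fold change was 0.05 (SE 0.64, 95% interval -1.52 to 1.61, adjusted p = 0.999 from limma), the widest interval of the 7 genes. It was 0.59 without control 3 and -0.53 without CNT 3, and it was also negative without control 1 (-0.21) or control 2 (-0.24). The second Glra2 probe set did not share this pattern. It gave 4.59, 4.67 and 4.75 in control and 4.69, 4.65 and 4.67 in CNT cultures, a range of 0.17 over all 6 arrays against 1.76 for the leading one. Both probe sets are of the kind marked as recognising several transcripts of the gene, and the mean of the leading one exceeds that of 5.26% of the genes.

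Glrb encodes the beta subunit, which joins the alpha subunits in the receptor and ties it to gephyrin. The leading probe set gave 12, 12.15 and 11.81 in control and 11.97, 12.05 and 11.53 in CNT cultures. The groups overlap, and the culture numbered 3 is the lowest on each substrate. The log2 fold change was -0.14 (SE 0.17, 95% interval -0.56 to 0.29, adjusted p = 0.999 from limma), and it was 0.02 without CNT 3. A second Glrb probe set varied far more, with 8.29, 9.99 and 9.43 in control and 9.42, 8.44 and 8.32 in CNT cultures. Its log2 fold change was -0.51 (SE 0.50, 95% interval -1.74 to 0.72, adjusted p = 0.999 from limma among all probe sets). This probe set was lowest in control 1, CNT 2 and CNT 3, where the beta-actin 3' excess was largest (2.20, 2.20 and 1.72). On the other arrays that excess was 0.62 to 0.92, and its part in these values was not tested. The third Glrb probe set, marked as prone to cross-hybridization, stayed between 3.52 and 3.62 on all 6 arrays, dimmer than nearly all others.

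**Figure D2:**
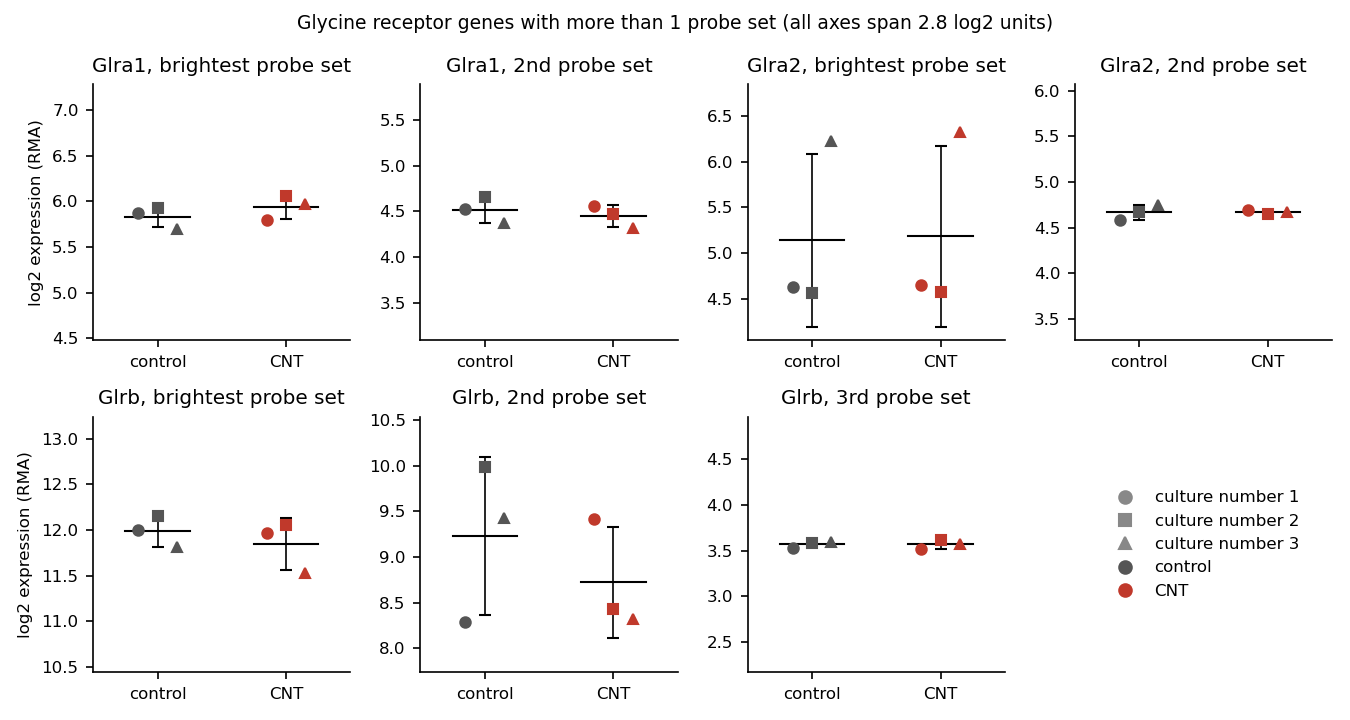
Log2 expression of every single-gene probe set of Glra1, Glra2 and Glrb on each array, with control in grey and CNT in red and a symbol for each culture number. Lines mark the mean and bars the SD (n = 3); the rise in both cultures numbered 3 is seen in the brightest Glra2 probe set (6.23 and 6.33) and not in the 2nd (4.75 and 4.67).

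Gabra2 encodes the alpha 2 subunit of the GABA-A receptor, and Gphn encodes gephyrin, the scaffold that gathers glycine and GABA-A receptors at synapses and that in every cell also takes part in making the molybdenum cofactor. Gabra2 gave 5.49, 5.28 and 5.61 in control and 5.66, 5.58 and 5.19 in CNT cultures. The highest and the lowest of the 6 values are both CNT cultures, and the log2 fold change was 0.01 (SE 0.16, 95% interval -0.38 to 0.41, adjusted p = 0.999 from limma). Leaving out control 2 or CNT 1 gave -0.08, leaving out CNT 2 gave -0.04, and without CNT 3 it was 0.16. Its mean exceeds that of 7.52% of the genes. Gphn gave 10.91, 11.55 and 11.17 in control and 11.20, 11.37 and 10.85 in CNT cultures. The groups overlap, with the culture numbered 2 the highest on each substrate, and the log2 fold change was -0.07 (SE 0.21, 95% interval -0.58 to 0.45, adjusted p = 0.999 from limma). Dropping control 2 gave 0.10, dropping CNT 3 gave 0.08, and dropping control 1 gave -0.22.

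Slc12a2 encodes NKCC1, which brings sodium, potassium and chloride into the cell and is made by glia as well as by immature neurons. It gave 13.56, 13.64 and 13.22 in control and 13.73, 13.56 and 13.04 in CNT cultures, and its mean exceeds that of 98.3% of the genes. The culture numbered 3 is the lowest on each substrate, and the groups overlap. The log2 fold change was -0.03 (SE 0.21, 95% interval -0.55 to 0.49, adjusted p = 0.999 from limma). It was 0.01 without control 1, 0.05 without control 2, -0.18 without CNT 1, -0.16 without control 3 and 0.17 without CNT 3.

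Slc12a5 encodes KCC2, the chloride extruder that is made only in neurons. It gave 8.24, 8.29 and 9.22 in control and 8.24, 8.29 and 8.89 in CNT cultures. The cultures numbered 1 and 2 have nearly the same value on both substrates, and the cultures numbered 3 are above them, control 3 by 1.95-fold and CNT 3 by 1.54-fold over the mean of the others of their substrate. The log2 fold change was -0.11 (SE 0.32, 95% interval -0.89 to 0.67, adjusted p = 0.999 from limma). It was 0.21 without control 3, 0.0051 without CNT 1 and -0.32 without CNT 3.

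**Figure D3:**
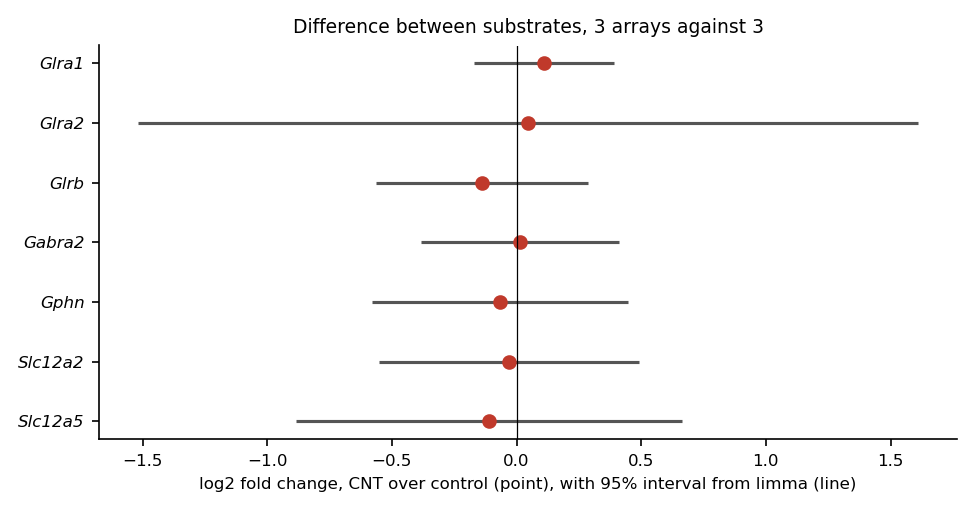
Log2 fold change of CNT over control for the leading probe set of each of the 7 genes (points) with the 95% interval from limma (lines), 3 arrays against 3. All 7 intervals include 0, and the widest, that of Glra2, runs from -1.52 to 1.61.

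The shift from NKCC1 to KCC2 and that from alpha 2 to alpha 1 were compared within each array, since a difference of log2 values between 2 probe sets has no meaning as a ratio of the transcripts but can be set against itself across arrays. Slc12a5 minus Slc12a2 was -4.89 ± 0.77 on control arrays and -4.97 ± 0.72 on CNT arrays (SD, n = 3 each). The change between substrates of -0.08 had an exact two-sided permutation p of 0.7 (adjusted 0.8 over the 2 differences compared). This value was 0.37 without control 3 and -0.49 without CNT 3. Glra1 minus Glra2 was 0.70 ± 1.06 on control arrays and 0.76 ± 0.98 on CNT arrays (SD, n = 3 each). Both leading probe sets are dim, with means above 10.5% (Glra1) and 5.26% (Glra2) of the genes. The leading Glra2 probe set ranged over 1.76 and the second over 0.17. The change of Glra1 minus Glra2 between substrates, 0.06, had an exact two-sided permutation p of 0.8 (adjusted 0.8). This value was -0.55 without control 3 and 0.62 without CNT 3. With 3 arrays against 3 such a test cannot go below 0.1.

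The largest differences among the 7 genes ran between cultures of one substrate, by culture number. This was noticed after the values were seen and is described with no test. By their leading probe sets, Glra2 and Slc12a5 were above all 4 other arrays in both cultures numbered 3, and Glrb and Slc12a2 below them. Thus 2 of 7 lay above and 2 of 7 below. Among all genes 11.5% lay above and 22.5% below in this way. The second Glra2 probe set (0.06 between cultures numbered 3 and the others) and the other Glrb probe sets (-0.16 and 0.02) overlapped and did not share this. Averaged over both substrates, the cultures numbered 3 differed from the others by 1.67 for Glra2, 0.79 for Slc12a5, -0.37 for Glrb and -0.49 for Slc12a2. The Glra2 value is above that of 99.5% of the genes and the Slc12a5 value above that of 96.2%. Those of Glrb and Slc12a2 are above 10.9% and 6.62% of the genes, and the count of 2 of 7 below lies near the share over all genes. Gphn (-0.25), Gabra2 (-0.10) and Glra1 (-0.08) lay closer to 0, and their cultures numbered 3 overlapped with the others.

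**Figure D4:**
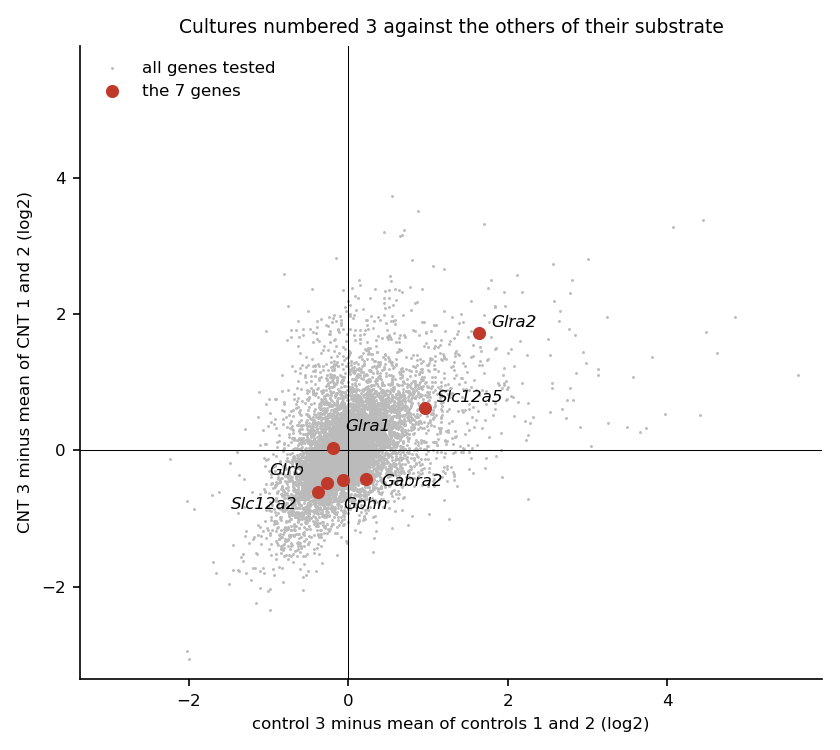
Difference in log2 expression between control 3 and the mean of the other controls (horizontal axis) and between CNT 3 and the mean of the other CNT cultures (vertical axis) for all 14217 genes (grey) and the 7 genes (red). Glra2 lies at 1.63 and 1.71 and Slc12a5 at 0.96 and 0.62, while Glrb and Slc12a2 are below 0 on both axes.

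Cell type markers were counted in the same way. The shares over all genes were 11.5% above and 22.5% below. The counts of lower microglia, neuron and endothelial markers and of higher fibroblast markers lay near these shares. Of 14 oligodendrocyte markers 11 were lower in both cultures numbered 3 than on every other array and none higher, and their mean relative to all arrays was -0.41 in control 3 and -0.56 in CNT 3 against -0.15 to 0.57 on the others. Of 11 astrocyte markers 5 were lower and none higher. Of 12 microglia markers 2 were lower and none higher. Of 6 Schwann cell markers 2 were higher (Pmp22 and Egr2), as were 2 of 14 fibroblast and meningeal markers (Dcn and Postn), and none was lower in either list. The fibroblast and meningeal mean was 0.27 in control 3, between controls 1 (0.64) and 2 (0.26). It was 0.30 in CNT 3, against -0.12 in CNT 1 and -1.35 in CNT 2. Of 9 endothelial markers 3 were higher (Flt1, Emcn and Tie1) and 2 lower (Kdr and Vwf), and of 9 smooth muscle and pericyte markers none was either. The median difference of cultures numbered 3 from the others was -0.76 for the oligodendrocyte, -0.40 for the astrocyte, -0.23 for the microglia, -0.06 for the neuron, -0.18 for the endothelial, 0.23 for the smooth muscle and pericyte, 0.24 for the Schwann cell and 0.38 for the fibroblast list. Of 20 neuron markers 5 were higher (Rbfox3, Snap25, Stmn2, Nefl and Celf4) and 5 lower (Map2, Nefm, Elavl3, Dcx and Ina). Snap25, a protein of the release machinery, was 10.62 and 10.53 in cultures numbered 3 and at most 9.06 elsewhere, whereas Dcx, a marker of young migrating neurons, was 7.75 and 7.19 there and at least 8.25 elsewhere. Slc32a1, the vesicular carrier that loads both GABA and glycine, was 6.52 and 6.81 in cultures numbered 3 and at most 6.08 elsewhere. Of 12 genes that make, load, take up or break down GABA and glycine, only this 1 lay above and 4 lay below. The 4 were Slc6a9, Aldh5a1, Gldc and Gcsh, while Gad1, Gad2 and Slc6a5 overlapped with the other arrays. Snap25, Dcx and Slc32a1 were chosen after their values were seen. The part of these markers in the values of Glra2, Slc12a5, Glrb and Slc12a2 was not tested.

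Of the 2 genes with values closest to those of each member, by the root mean square difference of mean-centred log2 values over the 6 arrays, Aunip (0.09) and Bbc3 (0.10) were nearest to Glra2. Bbc3 gave 9.36, 9.24 and 11.12 in control and 9.32, 9.32 and 11.24 in CNT cultures. Vip (0.07) and Mtfr2 (0.07) were nearest to Slc12a5, and Bag3 (0.02) and Eif2b5 (0.04) to Slc12a2. Ech1 (0.02) and Snrnp70 (0.03) were nearest to Glrb, Lpin1 and Kat7 (both 0.05) to Gphn, and Gdf9 and Scgb3a1 (both 0.07) to Gabra2. Glra1 varied less than the median gene and was not matched.

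The 250 bases before the annotated start are shown for 2 of these genes, Slc12a5 and Glrb, and their part in the expression values was not tested. Sequences are from RefSeq (build GRCr8), whose promoter table matched 5 of the 7 genes, and only for these 2 does the window lie wholly before the annotated gene. They read 5′ to 3′ on the strand of the gene, and capitals mark every match on either strand to CACGTG (the E-box bound by Usf1 and Usf2), GCGNGGGCG (Egr family), GGGCGG (the GC box), CCAAT and TATAAA. The Egr family motif can overlap the GC box.
Slc12a5, chr3:174115583-174115832, plus strand: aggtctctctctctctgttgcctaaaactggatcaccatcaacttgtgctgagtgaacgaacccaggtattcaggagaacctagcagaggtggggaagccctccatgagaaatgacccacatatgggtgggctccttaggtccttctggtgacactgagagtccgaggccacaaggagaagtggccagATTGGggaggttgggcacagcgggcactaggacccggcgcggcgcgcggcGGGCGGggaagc
Glrb, chr2:168505615-168505864, minus strand: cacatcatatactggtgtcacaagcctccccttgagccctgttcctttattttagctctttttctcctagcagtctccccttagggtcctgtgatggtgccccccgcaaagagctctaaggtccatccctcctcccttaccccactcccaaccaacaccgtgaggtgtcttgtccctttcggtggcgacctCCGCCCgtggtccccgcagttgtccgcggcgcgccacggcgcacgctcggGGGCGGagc
The Slc12a5 window holds 1 GC box and 1 CCAAT match, and the Glrb window holds 2 GC boxes. Neither holds the E-box, Egr or TATAAA letters. Over 33469 windows of the same length 30.5% hold the GC box, 34% CCAAT, 12.9% TATAAA, 5.59% the E-box and 4.29% the Egr motif. G and C make up 59.2% of the Slc12a5 and 61.2% of the Glrb window, where the median of all is 51.2%.

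Other subunits of the same receptors were likewise without a call. Of 4 measured genes of the glycine receptor list and 16 of the GABA-A receptor list none passed limma's test, with median log2 fold changes of 0.07 and 0.05. Glra3, the alpha 3 subunit, was at 4.05, 4.05 and 4.06 in control and at 4.13, 4.21 and 4.13 in CNT cultures, so the groups lie apart, but its mean exceeds that of only 0.802% of the genes and the log2 fold change was 0.10 (SE 0.08). Gabrr2, a rho subunit, gave 6.89, 7.07 and 6.98 in control and 7.26, 7.22 and 7.17 in CNT cultures. Its groups lie apart too, with a log2 fold change of 0.23 (SE 0.09, adjusted p = 0.999 from limma). Gabra6 had a log2 fold change of 0.18 (SE 0.10), and Gabrb1, the brightest of the GABA-A list, one of -0.21 (SE 0.17). Of the GABA-A genes, 10 had a positive and 6 a negative log2 fold change.

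The 4 measured genes of GABA-B receptors, which act through G proteins, had a median of 0.23, and none passed. Gabbr2, a receptor subunit, gave 8.33, 8.05 and 9.35 in control and 8.82, 9.62 and 9.55 in CNT cultures (log2 fold change 0.76, SE 0.39), and control 3 lies within the CNT range. Kctd12, an auxiliary subunit, gave 12.70, 12.76 and 13.16 and 13.08, 13.28 and 13.34 (log2 fold change 0.36, SE 0.16). Kctd16, another such subunit, had a log2 fold change of 0.10 (SE 0.17).

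Of 12 genes that make, load, take up or break down GABA and glycine, 6 were above and 6 below 0, with a median log2 fold change of 0.00, and none passed. Gad1, which makes GABA from glutamate, gave 11.43, 11.19 and 10.89 in control and 10.40, 11.24 and 10.42 in CNT cultures (log2 fold change -0.48, SE 0.27). CNT 2 lies among the controls, and the other 2 CNT cultures lie below them. Slc6a13, a GABA transporter found in the meninges, gave 8.22, 8.66 and 8.67 in control and 7.70, 6.27 and 8.46 in CNT cultures (log2 fold change -1.04, SE 0.54). Its lowest value was in CNT 2, where the fibroblast and meningeal marker mean was lowest as well (-1.35), and the part of those cells in it was not tested. Amt and Gcsh, parts of the glycine cleavage system, had log2 fold changes of 0.16 (SE 0.13) and -0.08 (SE 0.11).

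At the inhibitory postsynapse none of 18 genes passed, gephyrin among them, with 9 above and 9 below 0 and a median of 0.00. Nlgn2, the neuroligin of inhibitory synapses, gave 8.55, 7.99 and 8.22 in control and 7.28, 8.01 and 7.99 in CNT cultures (log2 fold change -0.49, SE 0.25), and the groups overlap. Nlgn3 had a log2 fold change of 0.20 (SE 0.14) and Plcl2 of 0.32 (SE 0.19). Gabarap, which helps carry GABA-A receptors to the membrane, was between 13.78 and 13.87 on all 6 arrays.

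Gephyrin's partners in the molybdenum cofactor pathway and the enzymes that use the cofactor were 9 genes with gephyrin, none of which passed, with a median of 0.02. Mocs3 gave 6.31, 6.02 and 6.06 in control and 6.44, 6.42 and 6.57 in CNT cultures, groups that lie apart (log2 fold change 0.35, SE 0.12, adjusted p = 0.999 from limma). Suox, sulfite oxidase, lay lower on every CNT array (log2 fold change -0.25, SE 0.13), from 9.05 to 9.21 against 9.22 to 9.60. Xdh, xanthine dehydrogenase, had a log2 fold change of 0.56 (SE 0.22), with overlapping groups, and Mocs2 one of 0.08 (SE 0.15).

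Among 15 cation-chloride cotransporters and their kinases and partners, 7 were above and 8 below 0, with a median of -0.01, and none passed. Slc12a7 (KCC4), which extrudes chloride in many cell types, gave 10.32, 10.38 and 11.09 in control and 10.72, 10.86 and 11.26 in CNT cultures (log2 fold change 0.35, SE 0.25). Of the 15 genes, 2 (Slc12a5 and Slc12a7) lay above all other arrays in both cultures numbered 3. In the same cultures 6 lay below (Slc12a2, Slc12a3, Slc12a9, Wnk1, Stk39 and Oxsr1). The shares over all genes were 11.5% above and 22.5% below. Neto2, a partner of KCC2, had a log2 fold change of -0.24 (SE 0.17). The kinases Wnk1 and Wnk2, which act upstream of these transporters, had -0.07 (SE 0.16) and 0.20 (SE 0.16). Of 6 genes tied to Slc12a5 transcription none passed, with a median of -0.05. Egr4, a transcription factor of the Slc12a5 gene, gave 6.53, 6.63 and 6.66 in control and 6.77, 6.70 and 6.79 in CNT cultures, which lie apart (log2 fold change 0.15, SE 0.09, adjusted p = 0.999 from limma). Bdnf and its receptor Ntrk2 had log2 fold changes of -0.27 (SE 0.41) and -0.13 (SE 0.22).

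None of 21 genes of other chloride channels and exchangers passed, 11 above and 10 below 0, with a median of 0.00. Lrrc8d and Lrrc8a, subunits of the volume-regulated anion channel, had log2 fold changes of 0.34 (SE 0.16) and -0.09 (SE 0.11). Clcc1 had -0.11 (SE 0.13), and Ano6 was between 12.67 and 12.81 on all 6 arrays.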

How the data were processed

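The deposited log2 values were computed by the authors with RMA (version not given in the sources used here) for the manufacturer's probe sets of an Affymetrix rat genome array. All 6 columns were used as deposited. Probe sets of several genes (436), of none (9780) and controls (57) were left out. A linear model with empirical Bayes moderation (limma 3.58.1, R 4.3.3) set 3 CNT against 3 control arrays, and p-values were adjusted by the Benjamini-Hochberg method over 14217 genes, with calls below 0.05. The code was tested on simulated data. The rank product named in the study's methods was not run, since its false positives come from resampling. The members and lists were chosen with earlier results of these data known, so lists are described by counts and medians. Named beside the members were 3 genes of smallest unadjusted p and 1 of highest mean per pathway list. For each member that varied more than the median gene, the 2 nearest genes were named. Of the marker lists, the brightest gene was named for neurons, astrocytes, myelin, microglia and fibroblasts. Other genes, such as Syt1, Rbfox3 and those listed by culture number, were named outside this rule. The number of arrays limits the precision, and RMA values carry no detection call, so a dim value may be background.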

Additional observations from a re-analysis of the deposited data

How the results depend on the processing

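The alternatives were quantile, cyclic loess and median scaling, values relative to the neuron marker mean, eBayes with trend and robust settings, weights per array, a replicate block, averaging the probe sets of a gene, testing all probe sets singly, dropping the dimmest 30% of genes (which removes Glra1, Glra2 and Gabra2), beta-actin 3' minus 5' signal as a covariate, dropping the arrays where it is largest (control 1 and CNT 2), and dropping each array in turn. No member passed under any of them, and the smallest adjusted p was 0.8303 (Gabra2 without CNT 3). Of 123 member values 102 kept their sign and 21 did not, and the cause was not tested. Some of the 102 were bound to keep it. The eBayes settings, the replicate block, testing probe sets singly and dropping dim genes leave a member's log2 fold change unchanged. So does averaging for a gene with 1 probe set. Glra1 kept its sign wherever it was scored. Testing probe sets singly scored only the leading one, and the second Glra1 probe set had the opposite sign (-0.07). With array weights Glra2 was -0.2607, Slc12a2 0.096 and the cotransporter list median 0.0946. Gabra2 was -0.0049 with quantile scaling, -0.0196 with cyclic loess and -0.02 without control 1 and CNT 2. Slc12a2 was 0.0153 with median centring and Gphn 0.01 with the beta-actin covariate, which also moved the molybdenum cofactor median to 0.1248. Glra1 minus Glra2 was -0.0063 with the mean of probe sets and -0.0256 without control 1 and CNT 2. Without the dimmest genes, where fewer genes are left, the medians were -0.1386 for the glycine, -0.2096 for the GABA-A and 0.3606 for the GABA-B receptor list. Leaving out each array in turn gave 0.0433 to 0.1795 for Glra1, -0.5251 to 0.591 for Glra2, -0.2399 to 0.0234 for Glrb, -0.0778 to 0.1566 for Gabra2, -0.2152 to 0.1038 for Gphn, -0.1757 to 0.1726 for Slc12a2 and -0.3174 to 0.2098 for Slc12a5. It gave -0.49 to 0.3668 for Slc12a5 minus Slc12a2 and -0.5477 to 0.6219 for Glra1 minus Glra2. List medians ranged from -0.0286 to 0.1096 for cotransporters, -0.1508 to 0.1008 for transmitter supply, 0.007 to 0.1038 for the molybdenum cofactor and -0.1161 to 0.0669 for Slc12a5 transcription. The genes called higher numbered 0 to 2, with 2 without control 3 (Mx1 and Prl6a1), neither a member.

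The replicate block left every member's log2 fold change as it was, at -0.11 for Slc12a5 (SE 0.12 in place of 0.32) and 0.05 for Glra2 (SE 0.10 in place of 0.64), with no call for any gene and a smallest adjusted p of 0.704. Limma then gave 498 genes higher and 179 lower at an unadjusted p under 0.05, in place of 342 and 101. Deviations of equal-numbered cultures from their group means correlated across genes at -0.13, 0.36 and 0.51 for numbers 1, 2 and 3. The highest correlation, 0.68, was that of control 2 with CNT 1. Deviations from a mean of 3 arrays are tied to each other, so these correlations cannot decide whether equal numbers pair the cultures. The labels do not say so either. The numbers were not taken to pair the cultures, and the descriptions by culture number use them as labels only.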
